A study of Mus musculus with 6 samples.

Results

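The genes described here are the protein-coding genes of autophagy and of lysosome acidification and proteolysis, chosen by symbol from an mm10 annotation. They comprise the Atg genes, the Atp6v subunits of the vacuolar ATPase, the Lamp, Map1lc3 and Gabarap genes, the cathepsins with a single-letter suffix, and Tfeb, Tfe3, Becn1, Sqstm1, Ulk1 and Ulk2. There are 74 of them among 21887 protein-coding genes on the main chromosomes. The measurement was ChIP-seq of H3K4me3, a histone mark of active and poised promoters, in Lgr5+ progenitor cells of the mouse cochlea. Cochleae were taken from C57BL/6 Lgr5-EGFP-creERT2 mice of either sex at postnatal days 0 to 3 and cultured in a medium with growth factors (IGF-1, bFGF and EGF) in both groups, and dissociated cells were sorted by GFP, which is driven from the Lgr5 locus. The 2 groups were cells treated for 12 h with neomycin, an aminoglycoside antibiotic that kills hair cells, and untreated cells, each with 2 H3K4me3 libraries and 1 input library; the inputs were not analysed here. Nothing in the labels tells if replicate libraries were grown and sorted apart, so the spread between them may be technical.

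Autophagy encloses cytoplasm in a double membrane and delivers it to the lysosome. Ulk kinases start the process, a lipid kinase complex with Beclin 1 and Atg14 marks the site, Atg9 and Atg2 proteins supply membrane, and a ubiquitin-like conjugation system attaches LC3 and GABARAP proteins to the growing membrane. The lysosome is acidified by the V-ATPase, whose V1 sector hydrolyses ATP and whose V0 sector carries protons through the membrane, and cathepsins digest the contents. Tfeb and Tfe3 are transcription factors that bind a palindromic E-box in the promoters of many lysosomal and autophagy genes. Aminoglycosides are known to accumulate in the lysosomes of cells that take them up.

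Each deposited file is the peak list of 1 library and carries no total of reads, which leaves depth unknown. The neomycin lists (replicates 1 and 2) held 14203 and 11545 peaks, and the untreated lists 15938 and 10520. The shortest peak was 48 and 110 bp in the neomycin lists and 187 and 234 bp in the untreated lists, and 3132 and 2051 neomycin peaks and 1455 and 1231 untreated peaks had exactly that length. Lengths therefore start from a different floor in each list, and a missing peak means that none was called, not that the mark was absent. The untreated lists carry H3K4me2 in their deposited names, but their labels name H3K4me3 and 1 antibody for every library, and the labels were followed. Of 10 supporting and progenitor cell markers, 9 and 10 had a promoter peak with neomycin and 10 and 10 without. Of 10 macrophage and 5 osteoclast markers, which belong to cells rich in cathepsins, 0 had one in any library. The neomycin libraries marked 0 and 0 of 7 mesenchyme markers and the untreated libraries 3 and 4, with summed peaks of 0 and 0 bp against 1143 and 2053 bp; Col1a1, Col1a2 and Pou3f4 had none anywhere. Of 7 hair cell markers 2 and 1 had a peak with neomycin and 4 and 1 without, and of 5 melanocyte markers 1 and 1 with neomycin and 1 and 0 without.

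Most of these promoters carried the mark somewhere: 54 of the 74 had a peak in 1 library or more (73.0%, against 55.0% of all genes), and 18 had one in all 4. A promoter was counted as marked when a peak overlapped the window of 1 kb either side of a start site. By this rule neomycin replicate 1 marked 40 members (54.1%, 95% Wilson interval 42.8 to 64.9) and neomycin replicate 2 marked 30 (40.5%, 30.1 to 51.9). Untreated replicate 1 marked 46 (62.2%, 50.8 to 72.4) and untreated replicate 2 marked 37 (50.0%, 38.9 to 61.1). Among all protein-coding genes the shares were 34.8% and 33.6% with neomycin and 47.0% and 36.3% without. The intervals cover counting error only. Neomycin replicate 1 lay above untreated replicate 2, so the groups overlapped. The 18 members marked in all 4 libraries (24.3%, background 16.6% of all genes) were Ulk2, Atg13, Becn1, Atg2b, Atg9a, Atg4b, Atg10, Atg12, Atg16l1, Map1lc3b, Atp6v1b2, Atp6v1c1, Atp6v1d, Atp6v0a2, Atp6v0d1, Ctsa, Ctsl and Ctso. Neighbours were sought by listed start, and by gene end only for genes without one, so other gene ends were not searched. Of the 74 members, 13 had such a neighbouring protein-coding gene within 1 kb. Among the 18 these were Atg12, Atg13, Atg2b, Atg4b, Atg9a, Atp6v0d1, Atp6v1b2, Atp6v1d and Ctsa. Peaks there cannot be assigned to 1 gene alone. At Atp6v1d the peaks of neomycin replicate 2 and untreated replicate 1 lay upstream of the start, outside the gene. The same held for Atg13 and Atg2b in neomycin replicate 1. At Atg12 the peaks of neomycin replicate 1 and untreated replicate 1 lay beyond the chosen gene end, also outside the gene. No peak was called at 20 members in any library (27.0%, background 45.0%). A stranded start site was listed for 60 members; for the other 14 (Becn1, Atg12, Atg16l1, Map1lc3a, Atp6v1b2, Atp6v1c1, Atp6v1g1, Atp6v1h, Atp6v0a2, Atp6v0d2, Ctsb, Ctse, Ctsh and Ctsw) the gene end with peaks in more libraries was used, without reference to treatment, and that end is not known to be the start. With a stranded start alone, 12 of 60 members were marked in all 4 libraries (20.0%, against 17.1% of all genes with one). The tile plot of summed peak lengths shows each member in each library.

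**Figure D1:**
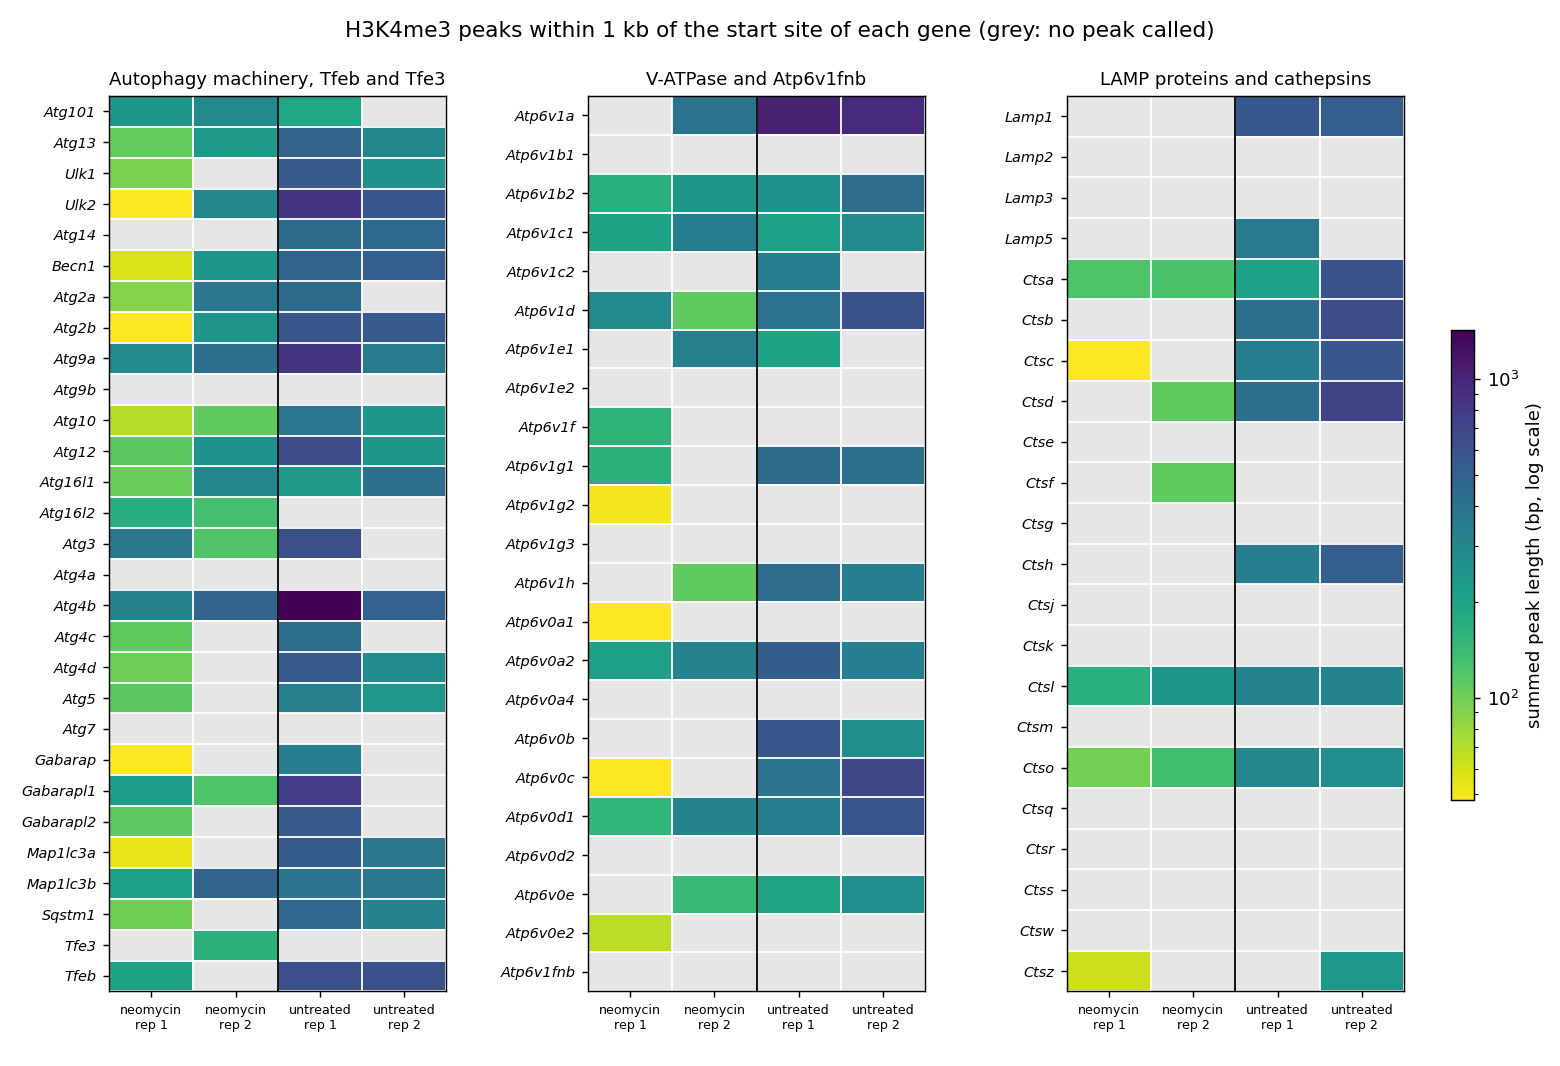
Summed length of the H3K4me3 peaks touching the promoter window (bp, log colour scale) for each of the 74 genes (rows) in the 2 neomycin and the 2 untreated libraries (columns); grey tiles have no peak. The autophagy panel is filled more in the replicate 1 columns than in the replicate 2 columns. The cathepsin and LAMP panel is filled more in the untreated columns than in the neomycin columns, and 20 genes are grey throughout.

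Of 27 genes of the autophagy machinery, from the Ulk kinases to the receptor Sqstm1, neomycin replicates 1 and 2 marked 23 and 15, and their untreated counterparts 23 and 16. These counts were equal or nearly equal between the treatments. For 22 LAMP and cathepsin genes the counts were 5 and 5 with neomycin and 9 and 9 without, so here the groups did not overlap. The 22 subunits of the V-ATPase gave 11 and 9 with neomycin and 13 and 11 without, and the groups met at 11. Among all genes both untreated libraries also had the larger shares, without overlap. With 2 libraries in each group the 4 libraries part into pairs in only 3 ways, so presence of a peak was not tested, and whether these gene groups differ from each other was not tested either. The joint LAMP and cathepsin count was formed after the values were seen. Apart, LAMP genes gave 0 and 0 of 4 against 2 and 1, and cathepsins 5 and 5 of 18 against 7 and 8. Ctsb and Ctsh count in both untreated libraries and in no neomycin library. Neither has a listed start, and their windows were placed at the gene end where these untreated peaks lay. The separation of the groups thus rests in part on windows placed by untreated peaks.

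**Figure D2:**
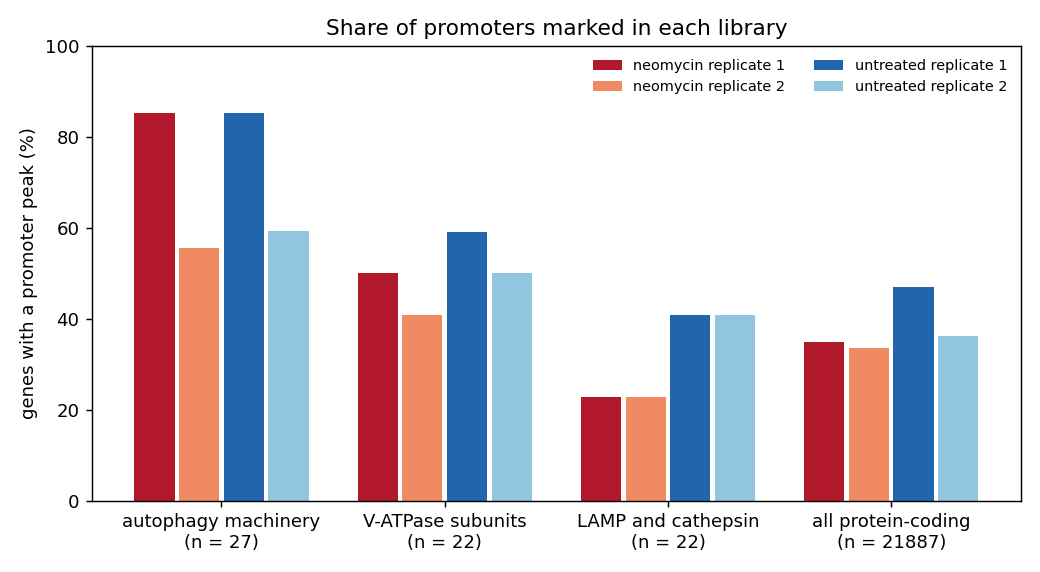
Share of genes with a promoter peak (%, y axis) in each of the 4 libraries for the autophagy machinery (n = 27), V-ATPase subunits (n = 22), LAMP and cathepsin genes (n = 22) and all protein-coding genes (n = 21887). The bars of the autophagy machinery fall into replicate 1 (85.2% and 85.2%) and replicate 2 (55.6% and 59.3%), while the LAMP and cathepsin bars fall into neomycin (22.7% and 22.7%) and untreated (40.9% and 40.9%).

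At 5 members each untreated library had a peak and each neomycin library lacked one, and at 1 member the reverse held. The untreated-only genes were Lamp1, which encodes a major glycoprotein of the lysosomal membrane, the protease genes Ctsb and Ctsh, Atp6v0b, a proton-carrying subunit of the V0 sector, and Atg14, which directs the lipid kinase complex to the forming autophagosome. The neomycin-only gene was Atg16l2, a paralogue of the conjugation factor Atg16l1. The counts amount to 6.76% and 1.35% of the 74 members, beside backgrounds of 4.66% of all genes untreated only and 1.41% neomycin only, so neither share stood far from the background. They depended on single libraries: 14 members (18.9%, against 11.1% of all genes) were untreated only without neomycin replicate 1, and 9 (12.2%, against 10.3%) without neomycin replicate 2. Neomycin-only members numbered 3 without neomycin replicate 1 (4.05%, against 3.10% of all genes), 5 without neomycin replicate 2 (6.76%, against 3.28%) and 5 without untreated replicate 1 (6.76%, against 5.92%). Mesenchyme markers were also marked in the untreated libraries alone, as was the hair cell marker Atoh1 (0 and 0 bp with neomycin, 601 and 955 bp without). The part of such cells in these calls was not tested. In sorted pools, fewer cells of a type and less of the mark per cell cannot be told apart.

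At Lamp1, on chromosome 8 from 13159161 to 13175338, there was no peak in the neomycin libraries, and there were single peaks of 558 and 508 bp in the untreated libraries. The nearest neomycin peaks lay 52.8 and 52.7 kb from the start site. By the deposited q, the untreated peaks stood at percentiles 98.6 and 67.0 of their own lists. Atg14, on chromosome 14 from 47540893 to 47568434, had 0 and 0 bp with neomycin against 429 and 444 bp without, at untreated percentiles 99.4 and 61.5, and its nearest neomycin peaks lay 80.6 and 80.7 kb away. Atp6v0b, on chromosome 4 from 117884330 to 117887333, had 0 and 0 bp against 577 and 265 bp, at percentiles 98.7 and 37.2, with neomycin peaks no nearer than 26.9 and 27.1 kb. All 3 genes had their peaks downstream of the start, in the first 652 bp. Ctsb, which encodes cathepsin B, lies on chromosome 14 from 63122462 to 63145923 and had 0 and 0 bp with neomycin against 406 and 644 bp without. Ctsh, which encodes cathepsin H, lies on chromosome 9 from 90054267 to 90076095 and had 0 and 0 bp against 341 and 510 bp. The window of both cathepsins was at the lower gene end, chosen because peaks lay there, and no strand was listed. For Ctsb the nearest neomycin peaks were 55.8 and 55.8 kb away, and for Ctsh 60.1 and 58.9 kb.

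Atg16l2, on chromosome 7 from 101286325 to 101302267, measured 168 and 131 bp with neomycin and 0 and 0 bp without, and in the untreated lists the nearest peaks lay 19.1 and 8.23 kb away. Its peaks ranked at percentiles 74.3 and 26.9 of their lists, and the gene lost its pattern among peaks with a -log10 q of at least 10 and where 200 bp had to be covered. None of the 6 genes had another protein-coding gene's listed start within 1 kb, or an end of a gene without one. Ends of genes with a listed start were not searched. All 5 untreated-only genes kept their pattern with windows of 500 bp and 2.5 kb, with lists of equal length, with at least 200 bp covered, with gene bodies counted and with the gene-end rule. None of the 5 kept it among peaks with a -log10 q of at least 10.

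**Figure D3:**
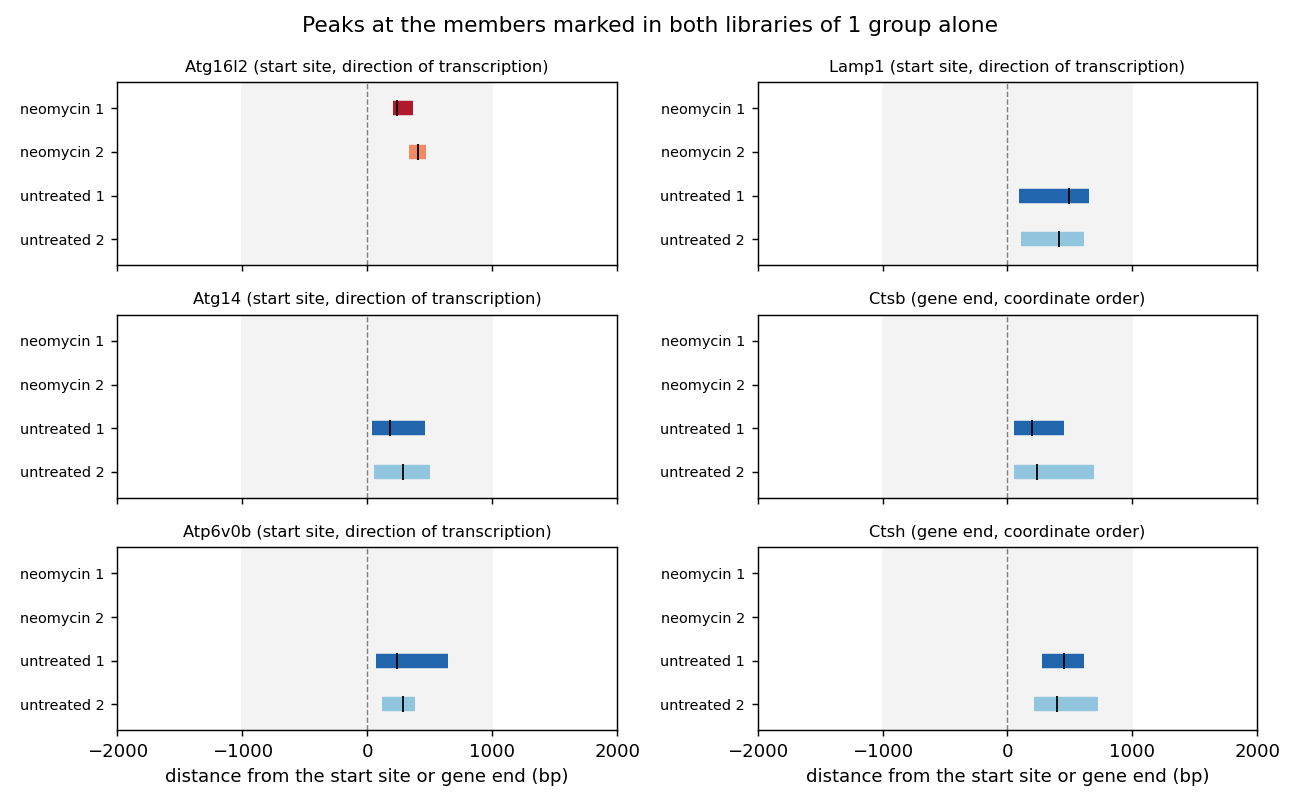
Peaks (bars) and summits (black ticks) of the 4 libraries by distance in bp from the start site, or for Ctsb and Ctsh from the chosen gene end, at the 6 genes marked in both libraries of 1 group alone; the shaded band is the 1 kb window. Atg16l2 has peaks in the neomycin rows alone, and the other 5 genes in the untreated rows alone, at overlapping positions in both replicates.

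Because Tfeb and Tfe3 recognise a palindrome around CACGTG, the promoter sequences of the named members were searched for it. The windows, from RefSeq on GRCm38.p6, run from 250 bases before to 50 bases after each listed start, and 60 members had one. CACGTG, which reads the same on both strands, was in 13 of the 60 (21.7%), against 1559 of 17492 genes (8.91%). The longer TCACGTGA, which contains CACGTG and is also palindromic, was in 6 (10.0%), against 246 genes (1.41%), and the CLEAR element, which extends it by 1 base on each side, in 0, against 82 (0.469%). These are shares of letters in a window and do not show binding. The windows below run from 250 bases before the start to 30 bases from it onward, with each CACGTG in capitals; at the match that shares most with the CLEAR element, the first where several are equal, the adjoining bases shared with it are in capitals too. Atp6v0d1, Ctsa and Ctsd are shown as 3 of the members that hold TCACGTGA, Atg14 and Atp6v0b as untreated-only genes that hold the hexamer, and Atg16l2 as the neomycin-only gene, which lacks it. They lie at chr8:105566035-105566314 (minus strand), chr2:164833523-164833802 (plus), chr7:142387798-142388077 (minus), chr14:47568405-47568684 (minus), chr4:117887300-117887579 (minus) and chr7:101302059-101302338 (minus).
Atp6v0d1: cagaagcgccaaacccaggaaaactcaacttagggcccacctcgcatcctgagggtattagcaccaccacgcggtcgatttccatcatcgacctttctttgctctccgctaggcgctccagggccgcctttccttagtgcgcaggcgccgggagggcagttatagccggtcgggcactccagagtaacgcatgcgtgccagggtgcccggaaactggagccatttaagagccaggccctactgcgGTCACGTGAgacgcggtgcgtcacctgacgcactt
Ctsa: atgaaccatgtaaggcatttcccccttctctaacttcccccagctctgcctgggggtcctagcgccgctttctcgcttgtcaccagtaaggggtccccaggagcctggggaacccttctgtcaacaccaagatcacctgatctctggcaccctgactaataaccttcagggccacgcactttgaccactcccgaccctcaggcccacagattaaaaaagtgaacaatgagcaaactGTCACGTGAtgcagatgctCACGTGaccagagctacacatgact
Ctsd: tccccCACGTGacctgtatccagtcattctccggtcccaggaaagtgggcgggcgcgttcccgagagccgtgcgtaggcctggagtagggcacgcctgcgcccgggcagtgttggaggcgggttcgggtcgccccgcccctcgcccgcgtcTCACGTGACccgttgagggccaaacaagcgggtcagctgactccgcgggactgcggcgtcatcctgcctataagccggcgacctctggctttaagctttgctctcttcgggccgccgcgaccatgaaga
Atg14: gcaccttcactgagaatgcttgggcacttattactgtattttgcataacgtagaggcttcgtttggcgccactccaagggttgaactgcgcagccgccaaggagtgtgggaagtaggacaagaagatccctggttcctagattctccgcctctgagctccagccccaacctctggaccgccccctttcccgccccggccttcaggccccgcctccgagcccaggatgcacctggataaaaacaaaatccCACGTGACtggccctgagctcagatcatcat
Atp6v0b: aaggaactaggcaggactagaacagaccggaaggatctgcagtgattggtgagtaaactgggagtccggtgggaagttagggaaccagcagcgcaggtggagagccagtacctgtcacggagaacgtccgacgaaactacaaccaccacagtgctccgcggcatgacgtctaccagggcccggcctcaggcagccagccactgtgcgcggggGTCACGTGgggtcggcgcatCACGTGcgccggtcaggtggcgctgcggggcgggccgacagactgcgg
Atg16l2: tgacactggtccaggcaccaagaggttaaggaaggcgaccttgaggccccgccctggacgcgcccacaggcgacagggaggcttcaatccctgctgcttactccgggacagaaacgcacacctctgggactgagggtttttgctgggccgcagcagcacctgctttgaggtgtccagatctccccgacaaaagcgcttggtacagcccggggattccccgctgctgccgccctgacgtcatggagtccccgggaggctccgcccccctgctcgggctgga

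The 6 members with TCACGTGA were Atg3, Atp6v0d1, Atp6v0e, Atp6v1a, Ctsa and Ctsd, 4 of them marked in 3 libraries and 2 in all 4. Of the 246 genes with the octamer, 84 were marked in 3 libraries and 67 in all 4, and 202 (82.1%) were marked in some library, against 53.7% of the genes without CACGTG. Their windows were also richer in CpG, with a median observed over expected ratio of 0.818 against 0.581, and the part of that difference was not tested. The 3 untreated-only members with a listed start, Atg14, Atp6v0b and Lamp1, all held CACGTG. Among all genes the hexamer was no commoner in that class: it stood in 11.0% of 792 untreated-only genes, 12.0% of 259 neomycin-only genes and 12.2% of 2998 genes marked in all 4 libraries.

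At the start of the pathway, the promoters of the initiation complex were marked almost throughout. Ulk1, the main kinase, had 95 and 0 bp of peaks in neomycin replicates 1 and 2 and 537 and 255 bp in untreated replicates 1 and 2; neomycin replicate 2 had peaks inside the gene, the nearest 1.34 kb from the start. Its relative Ulk2 had 48 and 296 bp with neomycin and 855 and 565 bp without. The scaffold Atg13, whose window is shared with Harbi1, was marked in all 4 libraries and its partner Atg101 in all except untreated replicate 2. Becn1, the core of the lipid kinase complex, had 58 and 240 bp with neomycin and 485 and 511 bp without. At Becn1 and Ulk2 both untreated values were higher than both neomycin values, and untreated peaks were longer in general. Of the membrane suppliers, the scramblase Atg9a had 277 and 419 bp with neomycin and 850 and 354 bp without, Atg2b was marked throughout, Atg2a lacked a peak in untreated replicate 2, and Atg9b had none. The Atg9a window is shared with Ankzf1.

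In the conjugation system, 4 of 11 genes were marked in all 4 libraries: Atg10 and Atg12 of the first conjugation, Atg16l1, and the LC3 protease Atg4b. Atg5, which Atg12 is joined to, had 112 and 0 bp with neomycin and 326 and 234 bp without, and the nearest peak in neomycin replicate 2 lay 265 kb away. Atg7, the activating enzyme, had no peak at its listed start in any library. That start lies 28.0 kb inside the gene, and at the gene's lower end, where the annotated gene begins, neomycin replicate 2 had 122 bp of peaks and the other 3 libraries none. Atg4a, a second protease, had none either. All 5 genes of the LC3 and GABARAP family were marked in both replicate 1 libraries, and 2 in each replicate 2 library. Map1lc3b, which encodes the LC3 protein most used as an autophagosome marker, had 203 and 482 bp with neomycin and 393 and 365 bp without. Gabarap had 48 and 0 bp with neomycin and 332 and 0 bp without, a pattern that followed the replicate number. Sqstm1, which encodes the cargo receptor p62, had 99 and 0 bp with neomycin and 460 and 315 bp without, and so lacked a peak in neomycin replicate 2 alone. That pattern was the commonest partial one, shared by 9 members (12.2%, against 6.47% of all genes): Ulk1, Atg4d, Atg5, Map1lc3a, Sqstm1, Tfeb, Atp6v0c, Atp6v1g1 and Ctsc.

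Tfeb had 199 and 0 bp of peaks with neomycin and 624 and 615 bp without. Tfe3, on the X chromosome, had 0 and 160 bp with neomycin and 0 and 0 bp without. So the 2 factors were marked in opposite neomycin libraries, and presence of a peak separated the groups at neither. At Tfeb both untreated lengths were higher than both neomycin values, and untreated peaks were longer in general.

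The V-ATPase split by isoform. All 15 subunit genes outside a list of tissue-restricted isoforms were marked in at least 1 library, against 55.0% of all genes. Single libraries marked 10 and 9 of the 15 with neomycin and 12 and 11 without. Atp6v0a1, Atp6v0e2 and Atp6v1f were marked in neomycin replicate 1 alone, with 48, 68 and 157 bp. Of the 7 restricted isoforms 2 were marked in some library. Atp6v1e2, Atp6v1g3, Atp6v0d2, Atp6v1b1 and Atp6v0a4 had no peak in any. Atp6v1a, the catalytic subunit of V1, had 0 and 386 bp with neomycin and 1012 and 948 bp without, in a window shared with Naa50. Its partner Atp6v1b2, the common B subunit, had 166 and 237 bp with neomycin and 251 and 424 bp without. Atp6v1b1, the alternative B subunit of kidney and ear, had its nearest peaks 32.2 and 32.1 kb away with neomycin and 32.4 and 51.7 kb away without. In humans, loss of this gene or of the V0 subunit gene Atp6v0a4 causes renal acidosis with deafness. At Atp6v0a4 the nearest peak of any library lay 129 kb away. Atp6v1h, a regulatory subunit, had 0 and 110 bp with neomycin and 424 and 327 bp without. The restricted isoforms with a peak were Atp6v1c2, with 335 bp in untreated replicate 1, and Atp6v1g2, with 51 bp in neomycin replicate 1 and a window shared with Nfkbil1.

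In the V0 sector, Atp6v0d1, which couples the sectors, had 152 and 311 bp with neomycin and 339 and 578 bp without, and Atp6v0c, the main proton-carrying ring subunit, had 48 and 0 bp against 391 and 687 bp. Of the large membrane subunits, Atp6v0a2 was marked throughout, while Atp6v0a1 had 48 and 0 bp with neomycin and 0 and 0 bp without, a single peak of the shortest length in its list. Subunits of 1 enzyme thus differed widely in how often they were called. Atp6v1fnb is a gene next to Atp6v1f that the symbol rule takes in; it had no peak within 1 kb of its start.

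Cathepsins divided along a list of placental and of immune or osteoclast genes. All 9 cathepsins outside that list were marked in some library. Ctsf was so by 1 peak of 110 bp, the shortest length in neomycin replicate 2. In contrast, 0 of 4 listed as placental (Ctsj, Ctsm, Ctsq and Ctsr) were marked in any library. The same held for 0 of 5 listed as immune or osteoclast (Ctse, Ctsg, Ctsk, Ctss and Ctsw). Ctsd, the main aspartic protease of the lysosome, had 0 and 110 bp with neomycin and 420 and 711 bp without. Its neomycin peak was 637 bp from the start and at percentile 1.49 of its list. Ctsl, a cysteine protease, had 166 and 235 bp with neomycin and 314 and 318 bp without. Ctsa, which protects lysosomal glycosidases, had 122 and 126 bp against 203 and 608 bp, in a window shared with Neurl2. Among the LAMP genes, Lamp2 had no peak in any library, and Lamp3 none either.

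Members without a peak had promoters poor in CpG. Among the 17 of these 20 with a listed window, the median CpG ratio was 0.138 (0 to 0.55), against 0.862 (0.325 to 1.21) in the 12 members with a window that were marked in all 4 libraries. Across all genes the medians were 0.212 for promoters without a peak and 0.851 for those marked in all 4. Ctso was the member with the lowest ratio, 0.325, among those marked throughout. H3K4me3 is known to favour CpG islands, and these values describe windows, not a test.

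**Figure D4:**
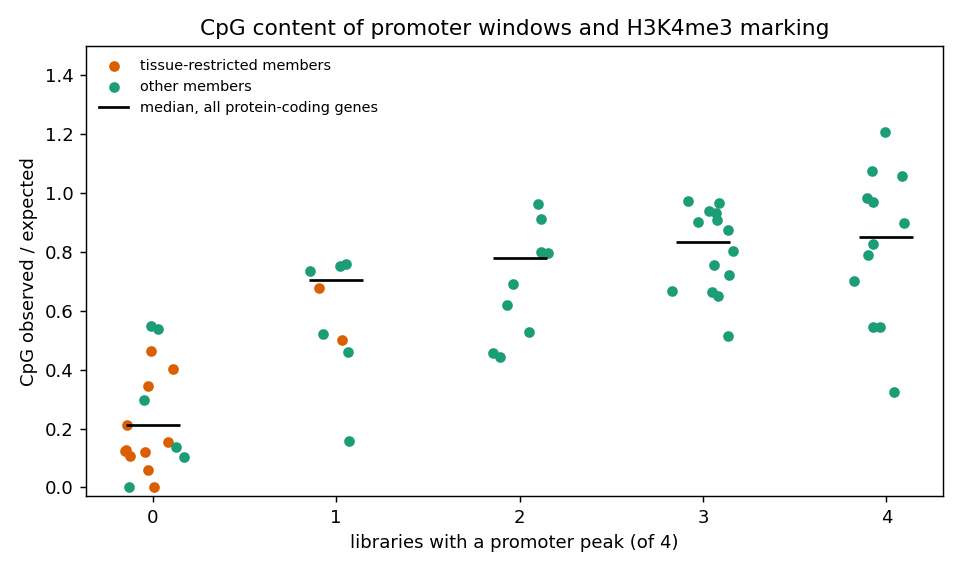
Observed over expected CpG ratio of the promoter window (y axis) against the number of libraries with a promoter peak (x axis) for the 60 members with a listed window; orange points are the tissue-restricted V-ATPase isoforms and the placental and immune or osteoclast cathepsins, and black lines are medians of all protein-coding genes. Members without a peak lie at 0.55 or below.

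The 3 X-linked members had few peaks: Lamp2 and Atg4a had none, and Tfe3 had 1, in neomycin replicate 2. Of 966 genes on the X chromosome, the neomycin libraries marked 2.90% and 2.07% and the untreated libraries 11.7% and 6.63%, against 36.8%, 35.5%, 49.3% and 38.1% of 20665 autosomal genes. Among genes with a CpG ratio of at least 0.6 the X shares were 6.14% and 5.05% with neomycin and 24.9% and 13.7% without, against 61.2%, 59.6%, 81.0% and 64.4% on autosomes. A missing peak at Lamp2 or Atg4a is therefore common to most X-linked genes in these lists. Outside the 74 genes, 7 pathway genes are X-linked, among them the V-ATPase accessory genes Atp6ap1 and Atp6ap2, and 6 of the 7 had no peak.

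At the 18 members marked in all 4 libraries, the length of the marked domain could be compared between the groups. Relative to each library's median promoter, the domain was longer with neomycin at 14 of the 18 and shorter at 4, with a median log2 difference of 0.42; over all 3638 promoters marked in all 4 libraries, 49.8% were longer and the median was -0.01. None of the 18 passed the limma test (smallest adjusted p 0.31, Benjamini-Hochberg over all promoters), and neither did any other promoter: 0.00% were called longer and 0.00% shorter. At an unadjusted limma p under 0.05 there were 2 of the 18 (Atp6v1c1 and Map1lc3b) and 353 of 3638 (9.70%). Without neomycin replicate 2, 423 of 5054 promoters passed, among them 2 of 27 members, a share near that of all promoters: Atp6v1c1 (log2 difference 1.78, adjusted p 0.0392, limma) and Ulk2 (-1.79, adjusted p 0.0379). Without neomycin replicate 1, 140 of 4863 promoters passed, and 0 of 22 members.

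Atp6v1c1, a subunit of the V1 stalk, had the largest difference. Its peaks summed to 199 and 341 bp with neomycin and to 208 and 283 bp without, while the median promoter had 125 and 236 bp with neomycin and 570 and 468 bp without. Its centred log2 lengths were therefore 0.67 and 0.53 with neomycin and -1.45 and -0.73 without, and the difference was 1.69 (SE 0.61, n = 2 each). The groups did not overlap at this gene on the centred scale, while the lengths in bp did. At Map1lc3b the centred values were 0.70 and 1.03 against -0.54 and -0.36, a difference of 1.31 (SE 0.60). Ctsl, Atg9a and Atp6v0a2 followed, at 0.91 (SE 0.61), 0.90 (SE 0.62) and 0.90 (SE 0.61), and Atp6v0a2 had 206 and 318 bp with neomycin and 522 and 328 bp without. Atg9a moved with single libraries, to 1.38 without untreated replicate 1 and 0.32 without untreated replicate 2. Ulk2 lay at the other end with -0.96 (SE 0.64), followed by Atg2b at -0.76, Becn1 at -0.49 and Atg10 at -0.19; at Ulk2 and Atg2b neomycin replicate 1 was at the shortest length its list holds, 48 bp. Without that library Ulk2 was at -0.07, Atg2b at -0.01 and Becn1 at 0.11; without neomycin replicate 2 Atg2b was at -1.46, Becn1 at -1.04 and Atg10 at -0.05. Atg10 was at -0.02 without untreated replicate 1 and at -0.47 without untreated replicate 2. Atg2b had 48 and 245 bp with neomycin and 572 and 536 bp without, in a window shared with Gskip. Its 48 bp peak lay upstream of the start, outside the gene. Atg10 had 69 and 110 bp against 374 and 238 bp. These directions are relative to the library median: without centring, the median of all promoters was -1.59, 17 of the 18 members were shorter with neomycin, and 1139 promoters were called shorter and 0 longer. Whether shorter peaks with neomycin reflect the cells, the floor of each list or the other mark in the deposited names of the untreated lists cannot be told apart.

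**Figure D5:**
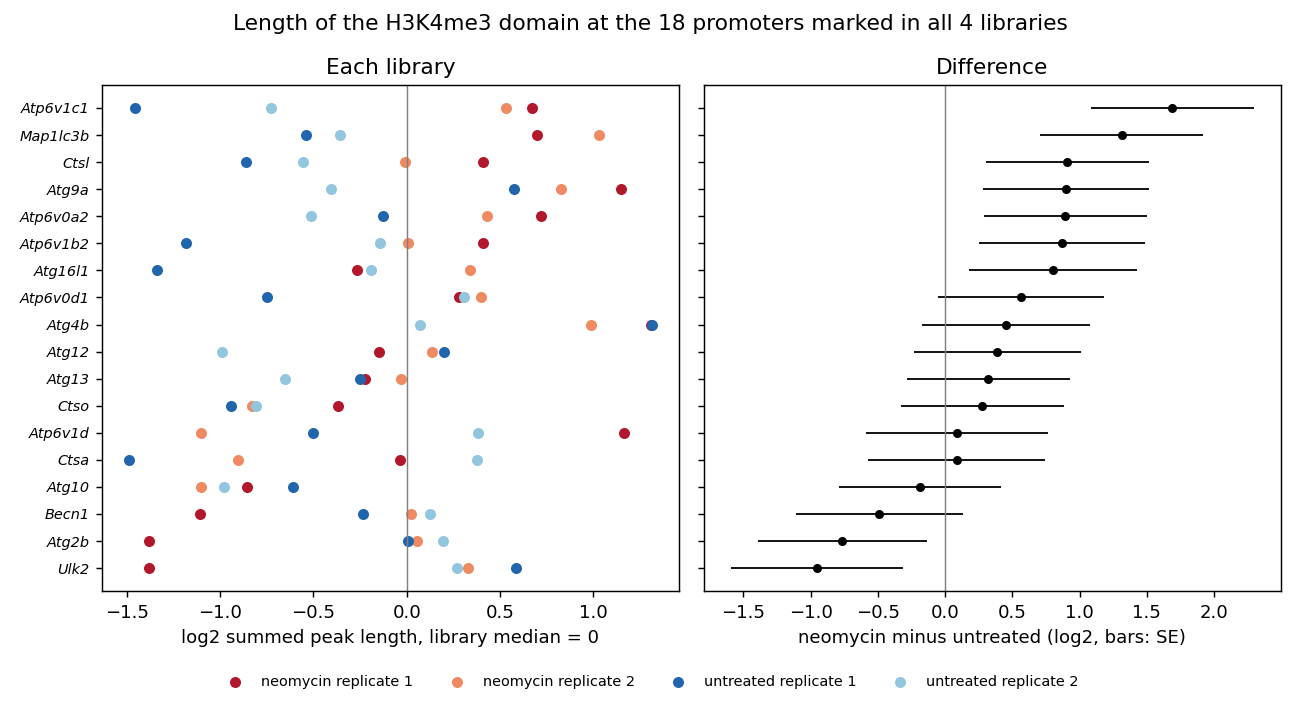
Left, log2 summed peak length of the 18 promoters marked in all 4 libraries, centred on each library's median promoter (1 point per library); right, the difference neomycin minus untreated with its SE from limma. Points of Atp6v1c1 at the top are apart between the groups, and those of Atg10, Ctso and Atp6v1d are mixed.

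The other genes of the pathway were counted by the same rule. Across 83 genes in 7 lists the counts were 51 and 47 with neomycin and 60 and 50 without; 23 genes were marked in all 4 libraries, 3 were neomycin only and 5 untreated only, beside 16.6%, 1.41% and 4.66% of all genes. Those counts correspond to 61.4% and 56.6% with neomycin and 72.3% and 60.2% without, beside 34.8% and 33.6%, and 47.0% and 36.3%, of all genes. The 24 lysosomal hydrolase and membrane protein genes gave 15 and 9 with neomycin and 19 and 14 without, and 0 of them were neomycin only. The 12 genes for fusion with lysosomes gave 8 and 11 with neomycin and 8 and 8 without, and Vps18, a subunit of the tethering complex, was neomycin only with 106 and 284 bp against 0 and 0 bp. Of 18 genes of mTORC1 signalling at the lysosome, Lamtor4 was neomycin only and Fnip1 untreated only. Of 13 genes of the lipid kinase and isolation membrane, Epg5 was neomycin only with 298 and 185 bp against 0 and 0 bp. Of 10 cargo receptors, 0 were marked in 1 group alone. Tcirg1, a V-ATPase subunit outside the Atp6v symbols, had 48 and 0 bp with neomycin and 0 and 0 bp without. Of Mitf, Tfec and Zkscan3, regulators related to Tfeb or opposed to it, Mitf was marked in 3 libraries, Zkscan3 in 2 and Tfec in 0.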

How the data were processed

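The submitters' processing notes name mm10 as the build and list CASAVA 1.4, Bowtie2, MACS2 and deepTools; settings, and the part of each tool, were not given in the sources used here. Each deposited list gives, per the file headers, the position and length of a peak in bp, a pileup signal, a fold enrichment (a ratio), and p-values and q-values as -log10; pileup and fold were not compared between lists. Lists were made per library, and depth is unknown.

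Peaks were assigned to start sites with RefSeq tables of GRCm38.p6, the assembly of mm10. Starts with strand were listed for 17492 of 21887 genes; the other 4395, 14 of them members, used the gene end with peaks in more libraries. The listed starts are not complete. A promoter was marked when a peak overlapped 1 kb either side of a start by at least 1 bp. Named members were those marked in 1 group alone, the up to 5 with the largest length difference in each direction, 24 key genes and, by name, those without a peak. A sequence window of Atg7 that the rule allowed is left out, since its listed start lies inside the gene. Motif, X chromosome and joint group counts were chosen with values in view. The members, lists and tests were chosen with earlier results of these data known. Values of some single genes of the pathway lists are not reported here.

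Domain length (log2 of the bases in all peaks that reach into the window) was taken relative to the median promoter of its library and fitted with limma 3.58.1 (R 4.3.3) over 3638 promoters; the threshold was an adjusted p of 0.05. Replicate numbers are shared between groups, but nothing in the labels pairs the libraries. The marking rule and the length fit were also run on simulated data. Those data lacked the different shortest peak lengths of the lists, so they do not show how well the steps work here. Other tools were pandas 2.3.3 and matplotlib 3.10.9 in Python 3.11.15. Alternatives were the window, the peak threshold, list length, overlap, gene bodies, the start rule, centring, a replicate block and leaving out each library.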

Additional observations from a re-analysis of the deposited data

How the results depend on the processing

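The count of 18 members marked in all 4 libraries was 12 to 20 with windows of 500 bp and 2.5 kb, lists of equal length, gene bodies and the gene-end rule. These shares were 16.2 to 27.0%, against 11.5 to 19.8% of all genes. With a stranded start alone, a setting added after seeing the data, it was 12 (20.0%, against 17.1% of all genes with one). The count was 3 (4.05%, against 2.26% of all genes) when at least 200 bp had to be covered. It was 0, as among all genes, for peaks with a -log10 q of at least 10. Such peaks number 747 and 283 in the neomycin lists and 6279 and 2259 in the untreated lists. The single neomycin-only member became 2 with lists of equal length (2.70%, against 1.80% of all genes) and 0 with the stricter q (0.00457% of all genes). At 200 bp it was 1 again (1.35%, against 0.0731% of all genes), but then Atg101. The 5 untreated-only members became 19 when 200 bp had to be covered (3935 of 21887 genes) and 3 with stranded starts alone (4.53% of all genes with one); the stricter q gave 7 (6.66% of all genes), and none of these was among the 5. Leaving out 1 library gave 18 to 27 members in all the remaining libraries, 1 to 5 neomycin only, 5 to 14 untreated only, 0 to 423 promoters with a called length difference and 0 to 2 members among them; the library alone in its group is then assumed to vary like the other group. Without centring, 1139 promoters and 3 members were called, all shorter with neomycin, and the differences of Map1lc3b (-0.28), Ctsl (-0.68), Atg9a (-0.69) and Atp6v0a2 (-0.69) reversed; Becn1 ranged from -1.04 without neomycin replicate 2 to 0.11, a reversal, without neomycin replicate 1. The cause was not tested. A replicate block left the count of called promoters at 0. Same-numbered deviations of length from the group means correlated at -0.0186 over 3638 promoters, so the lengths gave no sign of pairing. Presence of a peak did not enter that correlation. Some counts followed the replicate number, as in the autophagy machinery (23 and 15 with neomycin, 23 and 16 without). The length test at the stricter q could not be run, since 0 promoters were marked in all 4 libraries. Of 74 members, 4 had another pattern under the gene-end rule (Atg4c, Atg7, Atg9b and Atp6v1fnb). Read depth, which is unknown, limits each missing peak.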
